A study of Mus musculus with 6 samples.

Results

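The gastrokines (*Gkn1*, *Gkn2* and *Gkn3*) and the trefoil factors (*Tff1*, *Tff2* and *Tff3*) were followed across 6 single-color mouse gene expression arrays of esophagus and stomach organoids. The 6 genes were taken by name, and every non-control probe carrying 1 of these names was used, which gave 7 of the 55681 probes and 16 of the 59305 non-control spots on each array. *Tff1* had 2 probes and each of the other genes had 1, and the *Gkn2* probe was spotted 10 times. Organoids are epithelial cultures grown in a gel of basement membrane proteins. The labels give the three-dimensional cultures of both organs the same mouse numbers, 1, 2 and 4, and all were used at passage 0. The day of harvest was 8 for 5 of the cultures and 7 for the stomach culture of mouse 4.

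The general methods of the study name wild-type C57BL/6 female mice and a range of ages, without saying which of its mice were used for the arrays. The labels name no genetic change or drug for any array. In the culture methods of the study, stomach organoids were started from glands of the corpus in medium with WNT3A and R-spondin1 conditioned medium and gastrin. Esophagus organoids were started from dissociated tissue in medium with forskolin and without WNT3A, R-spondin1 or gastrin. Both media contained EGF, noggin, FGF-10, nicotinamide, an inhibitor of the TGF-β receptor kinase and a ROCK inhibitor. The study also grew esophagus organoids with WNT3A and R-spondin1, and its array methods do not name the medium. With the media above, organ and medium cannot be told apart in any comparison here. The esophagus array of mouse 4 was the only one on its slide, and the other 5 arrays shared a slide.

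Gastrokines are small secreted proteins with a BRICHOS domain, a fold that assists the handling of aggregation-prone protein segments, and they are typical products of the surface mucous cells of the stomach. Trefoil factors are small secreted peptides built from cysteine-rich trefoil domains and are released together with mucins, where they take part in mucus structure and in the repair of the epithelial surface. In the healthy stomach *Tff1* is known from surface mucous (pit) cells and *Tff2* from mucous neck cells, while *Tff3* is known mainly from goblet cells of the intestine.

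The probes are 60 bases long, and the first 30 bases of 1 probe per gene are shown because they define what each value measured.
Gkn1: gtcagcctgactctctacatttatatgtct
Gkn2: aattcacctttaagatggtccatcaactgg
Gkn3: tctgaacctctacgtcagccagactggaca
Tff1: cacagttcaacccctcagacttttagtcct
Tff2: ttccacccacttccaaaccaagaatcggag
Tff3: ctgctgcaggccaataaaggagccaggagt

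The gastrokine probes lie in the mouse build mm9 at chr6:87295651-87295710 on the minus strand (*Gkn1*), chr6:87329285-87329344 on the plus strand (*Gkn2*) and chr6:87333375-87333434 on the minus strand (*Gkn3*). The trefoil factor probes lie on the minus strand at chr17:31298346-31298405 (*Tff1*, probe A_55_P2021585), chr17:31298341-31298400 (*Tff1*, probe A_55_P2112005), chr17:31279256-31280080 (*Tff2*) and chr17:31262279-31262338 (*Tff3*). The 60 bases of the *Tff2* probe are spread over 825 bases of the genome, so this probe is interrupted there, and the exon or untranslated region that each probe falls in is not given in the sources used here. The 2 *Tff1* probes share 55 of their 60 bases and are not independent measurements. Between probes of different genes, the longest shared run was 5 to 9 bases over 20 pairs.

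Promoters of the 3 gastrokine genes are shown because these genes lie side by side and were all higher in stomach organoids. RefSeq sequences (GRCm38.p6) matched 3 of the 6 genes in the promoter table used here. The 250 bases before each start site are printed in the direction of the gene, at chr6:87350916-87351165 for *Gkn1*, chr6:87373115-87373364 for *Gkn2* and chr6:87388936-87389185 for *Gkn3*. Capitals mark matches, on either strand, to AGATAA or TGATAA (words bound by GATA factors), TGTTTGC or TGTTTAC (words bound by FOXA factors) and TATAAA.
Gkn1: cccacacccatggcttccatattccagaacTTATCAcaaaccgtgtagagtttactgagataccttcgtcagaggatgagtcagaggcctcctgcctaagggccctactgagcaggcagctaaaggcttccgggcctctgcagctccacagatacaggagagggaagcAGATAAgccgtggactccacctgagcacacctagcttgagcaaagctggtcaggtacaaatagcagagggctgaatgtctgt
Gkn2: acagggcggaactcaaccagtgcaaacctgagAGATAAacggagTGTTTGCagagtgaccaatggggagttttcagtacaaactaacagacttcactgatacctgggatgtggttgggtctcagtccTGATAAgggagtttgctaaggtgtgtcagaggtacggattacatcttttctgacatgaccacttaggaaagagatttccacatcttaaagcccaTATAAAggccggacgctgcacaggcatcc
Gkn3: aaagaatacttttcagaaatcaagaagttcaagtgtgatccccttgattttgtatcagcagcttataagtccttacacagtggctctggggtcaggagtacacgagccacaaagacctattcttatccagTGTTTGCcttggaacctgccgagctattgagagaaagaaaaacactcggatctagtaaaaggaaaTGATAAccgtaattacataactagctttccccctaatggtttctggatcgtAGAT

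The search covered 300 bases, from 250 before to 50 after the start. *Gkn1* held AGATAA 82 bases and TGATAA, on the other strand, 220 bases before the start. *Gkn2* held AGATAA at 218, TGTTTGC at 206, TGATAA at 123 and TATAAA at 29 bases before it. *Gkn3* held TGTTTGC at 120 and TGATAA at 55 bases before the start, an AGATAA that begins 4 bases before it and runs across it, and a TGATAA on the other strand after it. All 3 windows thus held at least 2 of the AGATAA and TGATAA words, and 3.3% of the 32851 promoters of the table did so. Single words were found in 11.2% (AGATAA), 9.1% (TGATAA), 5.1% (TGTTTGC), 3.6% (TGTTTAC) and 13.6% (TATAAA) of all promoters. CACCC, which factors of the KLF family bind, was matched in *Gkn1* alone and occurred in 57.5% of promoters. These matches are descriptions of letters, and no binding was measured.

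All 6 genes were higher in stomach than in esophagus organoids, and all 7 probes passed the test in that direction. Values are the deposited log2 intensities after background correction and quantile normalization, and differences are esophagus minus stomach with their standard error (SE). Each probe was tested with limma and called at an adjusted p (Benjamini-Hochberg, over all probes) under 0.05. Of all probes, 6.22% were called higher in stomach and 5.94% higher in esophagus. The 3 stomach values lay above the 3 esophagus values for each of the 7 probes, as they did for 13.4% of all probes with a value on every array. In bulk RNA of this kind, fewer cells of a type and less RNA per cell cannot be told apart.

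*Gkn1*, a secreted protein of pit cells, had log2 values of 9.77, 8.94 and 8.79 on the stomach arrays of mice 1, 2 and 4. On the esophagus arrays with the same mouse numbers it had 5.13, 4.40 and 4.59. It was well above background on the 3 stomach arrays and on no esophagus array, so its level in the esophagus is known only as a limit. The fitted difference was -4.46 (SE 0.30, n = 3 arrays per organ, 95% interval -5.16 to -3.76, limma adjusted p = 5.13e-05). A bound was taken against the dimmest signal that counted as well above background on each esophagus array, or against the probe's own value where that was higher. By this rule *Gkn1* was at least 17.9-fold higher in stomach organoids.

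*Gkn2*, which pairs with TFF1 as a partner in gastric mucus, had stomach values of 17.23, 16.93 and 16.75 and esophagus values of 4.85, 4.78 and 4.63. The esophagus values did not rise well above background anywhere. The difference of -12.22 (SE 0.17, n = 3, 95% interval -12.61 to -11.82, limma adjusted p = 3.23e-08) corresponded to at least 4129-fold more signal in stomach organoids. Its 10 spots gave the spot-to-spot spread within an array, which leaves out labelling, hybridisation and normalization error. The spots of 1 stomach array had an SD of 0.033 to 0.082 on the log2 scale, while the SD between the 3 stomach arrays was 0.24.

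**Figure D1:**
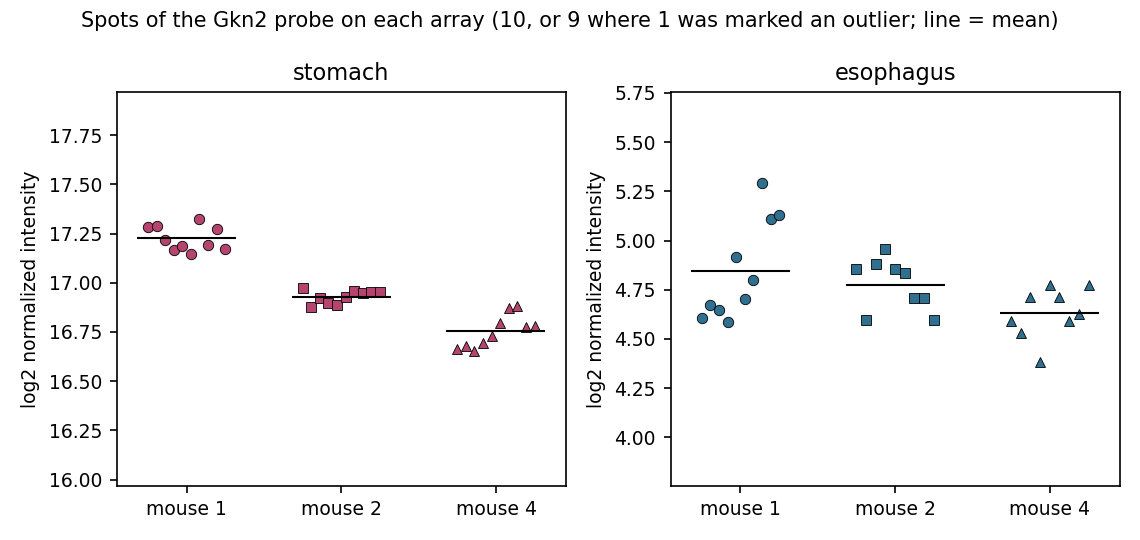
Log2 normalized intensity (vertical axis) of the spots of the Gkn2 probe on the stomach arrays (left) and esophagus arrays (right) of mice 1, 2 and 4, with 10 spots per array, or 9 where 1 spot was marked as an outlier; lines are array means. The stomach spots of mouse 1 lie between 17.15 and 17.33, those of mouse 2 between 16.87 and 16.97 and those of mouse 4 between 16.65 and 16.88.

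*Gkn3*, a gastrokine described in mice and known there from mucous neck cells, had stomach values of 17.16, 17.07 and 16.16. Its esophagus values of 6.68, 6.67 and 6.35 were the only ones of a member that were well above background on all 3 esophagus arrays. The difference was -10.23 (SE 0.27, n = 3, 95% interval -10.87 to -9.59, limma adjusted p = 4.06e-07), a 1200-fold difference between 2 measured levels. In the scanner software's background-subtracted intensities, the esophagus spots read 69.2, 66.8 and 45.3 units and the stomach spots 142392, 74724 and 78590 units. Among the columnar markers on the esophagus arrays, *Krt7*, *Krt18* and *Krt19* were well above background on all 3, *Krt8* on 1, and *Hnf4a*, *Gata6* and *Cldn18* on none. The log2 of the mean intensity over the 7 columnar markers lay between 8.58 and 10.08 in esophagus and between 15.58 and 15.77 in stomach organoids. The part of columnar cells in the esophageal *Gkn3* signal was not tested.

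*Tff1*, the trefoil factor of pit cells, stood at 17.88 on each of the 3 stomach arrays with probe A_55_P2021585 and at 5.66, 5.67 and 5.30 on the esophagus arrays. The 3 equal stomach values are set by the processing. Quantile normalization gives the brightest spot of every array the same value, and this spot was the brightest on all 3 stomach arrays. The second *Tff1* probe read 17.81, 17.81 and 17.73 in the stomach and 5.59, 5.65 and 5.13 in the esophagus. The differences of -12.34 (SE 0.16) and -12.32 (SE 0.18) both had a limma adjusted p of 3.23e-08 (n = 3). Each probe was well above background on 1 of 3 esophagus arrays. Before normalization the first probe read 259188, 164425 and 272414 units on the stomach arrays and 20.1, 20.3 and 7.16 units on the esophagus arrays, and no spot was saturated.

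*Tff2*, known from mucous neck cells and also called spasmolytic polypeptide, had 17.62, 17.73 and 17.48 on the stomach arrays and 4.84, 4.78 and 4.80 on the esophagus arrays, none of the latter well above background. The difference was -12.80 (SE 0.14, n = 3, 95% interval -13.13 to -12.48, limma adjusted p = 3.23e-08), or at least 6348-fold.

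*Tff3*, the trefoil factor of intestinal goblet cells, had 9.45, 8.81 and 7.74 on the stomach arrays and 5.25, 4.80 and 4.65 on the esophagus arrays. The stomach arrays were all well above background and none of the esophagus arrays was. With a difference of -3.76 (SE 0.40, n = 3, 95% interval -4.70 to -2.82, limma adjusted p = 0.000672), the bound was at least 12.3-fold.

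**Figure D2:**
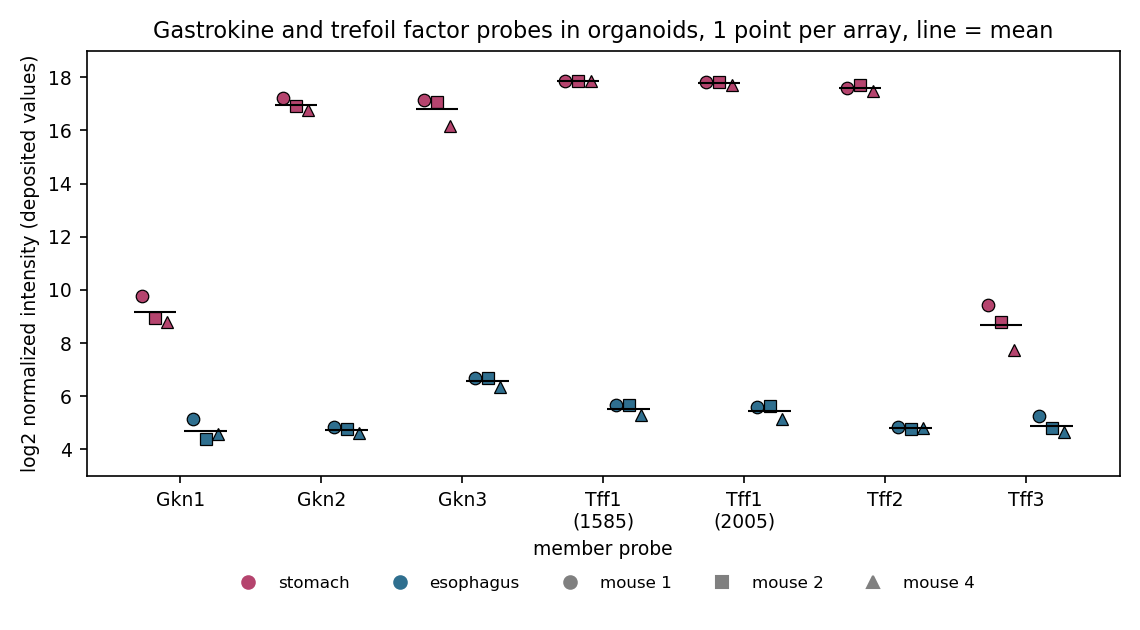
Deposited log2 normalized intensity (vertical axis) of the 7 member probes (horizontal axis; the last 4 digits tell the Tff1 probes apart) on the 3 stomach and 3 esophagus arrays; each point is 1 array, its shape gives the mouse and the lines are group means. All stomach points lie above all esophagus points of the same probe, and of the esophagus points only those of Gkn3 were well above background on all 3 arrays.

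The fitted differences of the members that lie below background in the esophagus depended on how background was treated, while the direction and the call did not. On background-subtracted intensities divided by the 75th percentile of their array, *Gkn1* differed by -7.17, *Tff3* by -6.41, *Gkn2* by -15.06 and *Tff2* by -15.60. With a normexp offset of 50 these values were -3.30, -2.71, -11.00 and -11.63. The first *Tff1* probe, above background on 1 of 3 esophagus arrays, moved from -12.34 to -14.10 and -11.53 on these scales. *Gkn3*, measured in both organs, moved little, between -10.78 and -9.79 over the settings run.

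Among the 3 stomach arrays the members did not vary alike. The SD over the stomach arrays was 0.87 for *Tff3*, 0.55 for *Gkn3* and 0.53 for *Gkn1*, against a median of 0.24 over the 24429 probes well above background on all stomach arrays. The SD of *Tff3* exceeded that of 97.4% of these probes, *Gkn3* stood at 89.6% and *Gkn1* at 88.3%. *Gkn2* was at 49.8% and *Tff2*, with an SD of 0.12, at 19.2%. The equal values of the first *Tff1* probe are those of the ceiling described above. On 75th percentile scaling the *Tff1* probes had an SD of 0.33 and 0.30, *Tff2* had 0.38 and the median probe had 0.29. The 75th percentiles were 353, 179 and 466 units on the stomach arrays of mice 1, 2 and 4. The scaled values of *Tff1* and *Tff2* ran in the reverse order of these divisors. How much of their scaled spread is that of the divisors was not tested.

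The stomach array of mouse 4, the one harvested on day 7, was the lowest of the 3 for 6 of the 7 member probes and, on 75th percentile scaling, for all 7. This was the case for 39.3% and 43.7% of the 24429 probes on these scales. From mouse 1 to mouse 4 the deposited values differed 3.28-fold for *Tff3*, 1.99-fold for *Gkn3*, 1.97-fold for *Gkn1*, 1.39-fold for *Gkn2* and 1.1-fold for *Tff2*. On the scaled intensities the same ratios were 3.51, 2.40, 1.87, 1.64 and 1.24, and 1.26 for *Tff1*. Before scaling, every member read lowest on the mouse 2 array, and *Tff1* and *Tff2* read highest on the mouse 4 array. *Tff2* then had 206662, 142698 and 221143 units on the arrays of mice 1, 2 and 4. The part of array brightness in the order of the members was not tested, and the shares of all probes are not matched for intensity. Each mouse gave 1 stomach array, so the mouse and the day of harvest cannot be told apart and no test was made.

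**Figure D3:**
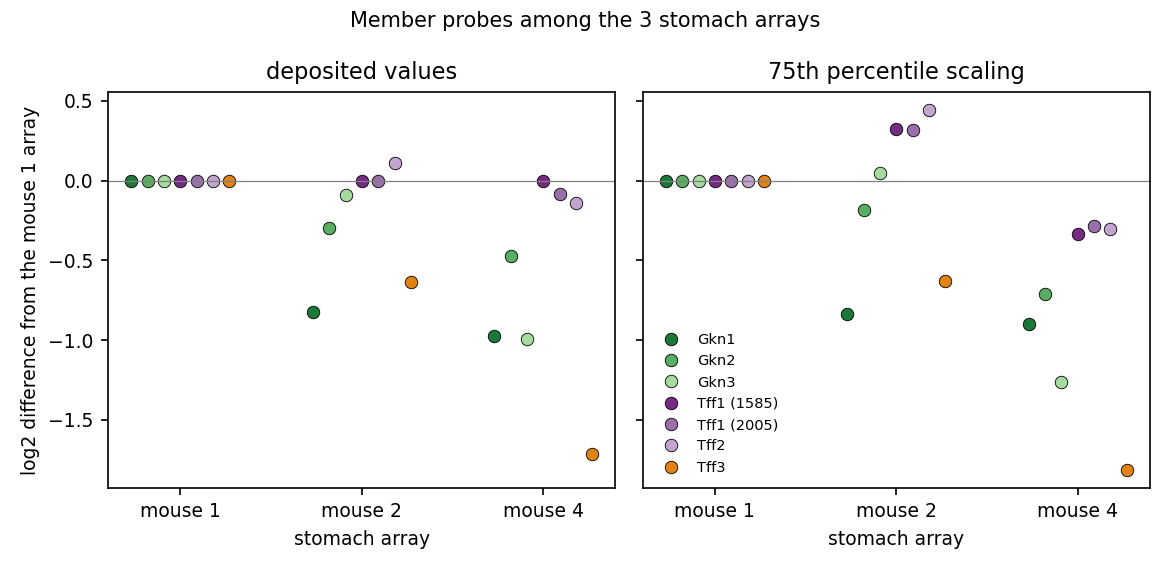
Log2 difference of each member probe from its value on the mouse 1 array (vertical axis) for the stomach arrays of mice 1, 2 and 4, on the deposited values (left) and after 75th percentile scaling (right); each point is 1 probe on 1 array. Tff3, Gkn3 and Gkn1 are lower on the mouse 4 array by 1.71, 0.99 and 0.98 on the deposited values, while the Tff1 probes lie at or near 0 there and below 0 after scaling.

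Few of the other BRICHOS domain and trefoil domain genes on the arrays were called. Of 7 further BRICHOS genes, none was called higher in stomach and 1 was called higher in esophagus, with a median difference of -0.07 against 0.03 over all genes. Each gene is represented by its brightest probe in these counts, and by this rule 7.7% of 34276 genes were called higher in stomach and 7.15% higher in esophagus. The called gene was *Itm2b*, a membrane protein, at 0.55 (SE 0.14, limma adjusted p = 0.0417), and this call was lost in most alternatives run, over which the difference ranged from 0.48 to 0.89. *Bricd5* differed by -0.62 (adjusted p = 0.0896), *Itm2a* by -0.59 (adjusted p = 0.461) and *Cnmd*, a cartilage protein, by 0.37 (adjusted p = 0.604). Some alternatives added calls toward the stomach. *Bricd5* was called on 75th percentile scaling (-2.05, adjusted p = 0.0274) and without esophagus mouse 4 (-0.79, adjusted p = 0.0338), and *Itm2a* without esophagus mouse 1 (-1.10, adjusted p = 0.0158). Of 4 further trefoil domain genes, the lysosomal glucosidase *Gaa* was higher in stomach at -1.04 (SE 0.18, adjusted p = 0.0069), a call lost on 75th percentile scaling (-0.78, adjusted p = 0.166). Its 2 dimmer probes, not above background in the esophagus, were not called (-0.66, adjusted p = 0.147, and -0.33, adjusted p = 0.287). The digestive enzymes *Mgam* (-0.21) and *Sis* (0.04) and the egg coat gene *Zp1* (0.07) did not rise well above background anywhere.

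Reported partners and receptors of trefoil factors were split. Of 11 genes, 4 were called higher in stomach, 1 higher in esophagus and 6 were not called. The mucin *Muc5ac*, which carries TFF1, had stomach values of 15.65, 15.03 and 13.26 and esophagus values of 5.17, 4.78 and 5.21, a difference of -9.59 (SE 0.54, limma adjusted p = 1.94e-05) or at least 713-fold. Without stomach mouse 4 the difference was -10.29. *Muc6*, the gland mucin that carries TFF2, had 7.39, 8.33 and 9.79 against 4.59, 4.76 and 4.53, a difference of -3.88 (SE 0.52, adjusted p = 0.00224) or at least 11.7-fold, and -3.24 without stomach mouse 4. *Muc5ac* and *Muc6* ran in opposite order over the 3 stomach arrays.

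*Dmbt1*, a scavenger receptor of mucosal surfaces that binds trefoil factors, had 17.46, 17.17 and 15.58 in the stomach and 4.95, 4.99 and 5.33 in the esophagus, a difference of -11.64 (SE 0.45, adjusted p = 2.29e-06) or at least 3065-fold. *Fcgbp*, a mucus protein that binds TFF3, differed by -0.997 (SE 0.21, adjusted p = 0.0206), and its call was lost without stomach mouse 1 (adjusted p = 0.0632) or stomach mouse 2 (adjusted p = 0.0811). The dimmer *Fcgbp* probe, not above background on any array, was not called (-0.09, limma adjusted p = 0.881). *Egfr* was the 1 gene higher in esophagus, at 1.11 (SE 0.19, adjusted p = 0.0077), and of its other probes 1 was called (1.46, adjusted p = 0.0414) and 1 was not (1.16, adjusted p = 0.0615). The receptors *F2rl1* (-0.66, adjusted p = 0.223), *Lingo3* (-0.45, adjusted p = 0.336) and *Ackr3* (0.09, adjusted p = 0.896) and the goblet cell mucin *Muc2* (-0.43, adjusted p = 0.285) were not called, although *Lingo3* was called higher in stomach without esophagus mouse 1 (-0.72, adjusted p = 0.0435). *Cxcr4* (-0.30) and *Lingo2* (0.05) did not rise well above background anywhere.

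Genes of the cell types that make gastrokines and trefoil factors were counted in the same way. Of 13 pit cell genes, 11 were called higher in stomach and none higher in esophagus, with a median difference of -8.90. Among them were *Mucl3* (-11.71, adjusted p = 4.31e-08, at least 3004-fold), *Sult1c2* (-11.28, adjusted p = 8.28e-08, at least 2197-fold), *Anxa10* (-11.03, adjusted p = 3.23e-08, at least 1907-fold) and *Ctse*, cathepsin E (-9.94, adjusted p = 1.11e-07, at least 903-fold). These 4 were above background in the stomach alone. The call of *Capn9* was lost without stomach mouse 2 (adjusted p = 0.0758) and at a normexp offset of 50 (adjusted p = 0.0898), and *Psca* was called higher in stomach without esophagus mouse 1 (adjusted p = 0.0353). The dimmer *Capn9* probe, not above background on any array, was not called (-0.50, limma adjusted p = 0.0619). Of 10 mucous neck and isthmus genes, 5 were called higher in stomach and none higher in esophagus, with a median of -1.50. *Aqp5*, a water channel, differed by -9.78 (adjusted p = 5.57e-07), *Agr2*, a disulfide isomerase of mucin-producing cells, by -9.60 (adjusted p = 4.63e-07) and *Glipr1* by -3.43 (adjusted p = 0.000333). On the esophagus arrays *Aqp5* and *Agr2* were above background on 2 of 3 and *Glipr1* on 1 of 3. Over the settings run *Aqp5* ranged from -10.81 to -8.999, *Agr2* from -11.37 to -8.70 and *Glipr1* from -5.27 to -2.64. The others not called in this list included the proliferation genes *Mki67* and *Stmn1* and, by its brightest probe, the hyaluronan receptor *Cd44* (1.12, adjusted p = 0.153). Its other 3 probes were called higher in esophagus (1.59, 1.67 and 1.42, adjusted p = 0.0307, 0.0103 and 0.0418), and without stomach mouse 4 the brightest was too (1.65, adjusted p = 0.00448). *A4gnt* was called higher in stomach without stomach mouse 1 (adjusted p = 0.0424) and on 75th percentile scaling (adjusted p = 0.0181).

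Of 10 intestinal goblet and intestinal identity genes, 6 were called higher in stomach and none higher in esophagus, with a median of -1.60. *Clca1*, a secreted goblet cell protein, had stomach values of 16.30, 15.61 and 15.11 and esophagus values of 5.33, 5.11 and 4.83, at least 1527-fold apart (adjusted p = 5.34e-07). *Cdx2*, an intestinal transcription factor, had 8.73, 8.76 and 9.91 against 4.50, 4.30 and 4.71, at least 18.1-fold apart (adjusted p = 6.1e-05). *Spdef*, a factor of secretory cells, had 10.46, 10.84 and 10.74 against 8.21, 7.41 and 5.30. It differed by -3.71 (adjusted p = 0.00798), by -2.87 without esophagus mouse 4 and by -4.33 without esophagus mouse 1, and its call was lost on quantile normalized background-subtracted intensities (adjusted p = 0.113). *Retnlb*, above background in the stomach alone, was at least 4.38-fold higher there (adjusted p = 0.00506). The call of *Zg16* was lost without stomach mouse 1 (adjusted p = 0.0911), without esophagus mouse 2 (adjusted p = 0.0553) and at a normexp offset of 50 (adjusted p = 0.0673). *Atoh1*, *Cdx1* and *Reg4* did not rise well above background anywhere.

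Of 10 transcription factors listed for the columnar lineage, 7 were called higher in stomach and 1 higher in esophagus, with a median of -4.18. None of *Hnf4a*, *Gata4*, *Foxa2* and *Gata6* was well above background on an esophagus array. *Hnf4a* was at least 810.0-fold higher in stomach (adjusted p = 8.28e-08), *Gata4* at least 225-fold (adjusted p = 1.05e-06), *Foxa2* at least 182-fold (adjusted p = 2.93e-07) and *Gata6* at least 110.0-fold (adjusted p = 1.47e-06). The dimmer *Foxa2* probe, also above background in the stomach alone, differed by -5.70 (limma adjusted p = 1.1e-06). The call of *Foxq1* was lost without stomach mouse 1 (adjusted p = 0.0512) or mouse 2 (adjusted p = 0.0621) and on quantile normalized background-subtracted intensities (adjusted p = 0.0541). The gene higher in esophagus was *Sox2*, a foregut factor that is also known for defining squamous epithelium and so is no columnar factor alone, at 1.87 (SE 0.15, adjusted p = 0.000129). Over all lists, 31 of 61 genes were called higher in stomach and 3 higher in esophagus, and with the probes of a gene averaged 30 and 4.

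**Figure D4:**
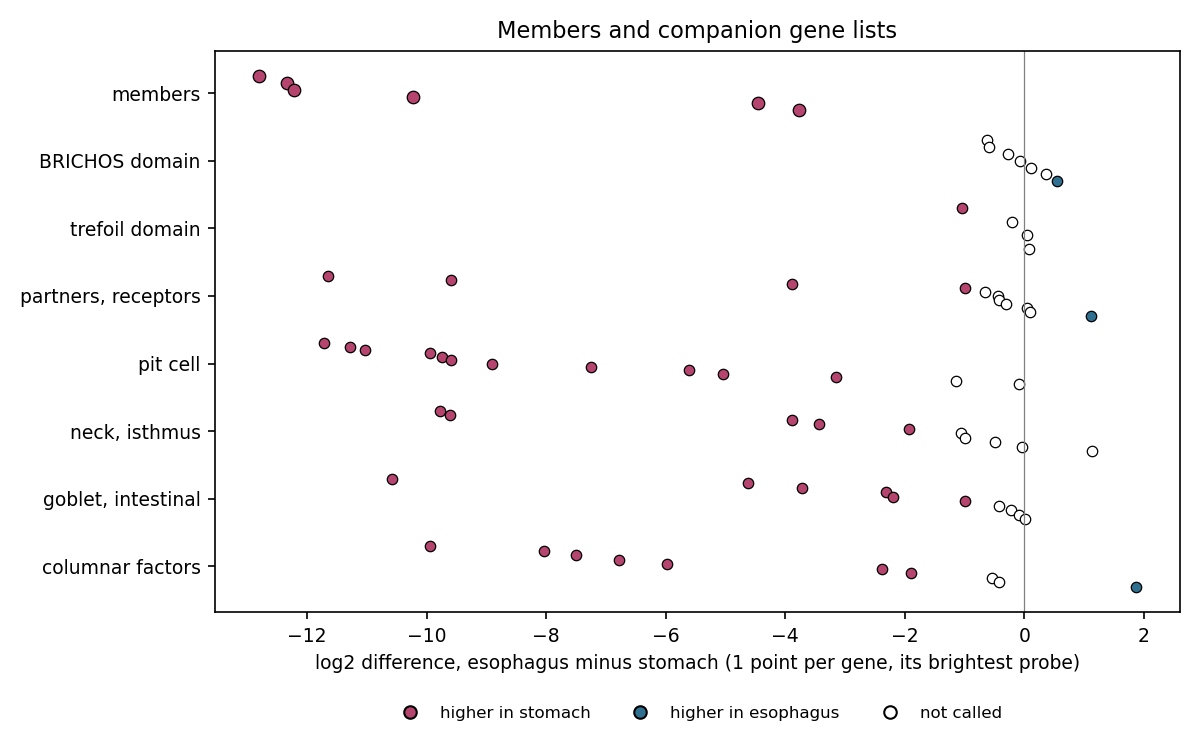
Log2 difference, esophagus minus stomach (horizontal axis), of the 6 member genes and of the genes of 7 companion lists (vertical axis), 1 point per gene by its brightest probe; fill gives the call at an adjusted p under 0.05. The 6 members lie between -12.80 and -3.76, most pit cell genes lie beside them, and the BRICHOS and trefoil domain genes lie between -1.04 and 0.55.

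Both families lie in clusters, and their neighbours were called in both directions or not at all. The gastrokine locus spans 43.3 kb of chromosome 6 and the trefoil factor locus 39.8 kb of chromosome 17, by gene positions in the RefSeq table (GRCm38.p6). *Antxr1*, an anthrax toxin receptor and the nearest measured gene to the gastrokines at 9.84 kb, had a mean of 6.94 ± 0.23 (SD, n = 3) in stomach and 9.44 ± 0.85 (SD, n = 3) in esophagus organoids, and was higher in esophagus at 2.50 (SE 0.39, limma adjusted p = 0.00456). On the other side of the locus *Bmp10* did not rise well above background anywhere, *Arhgap25* was higher in esophagus at 2.32 (SE 0.19, adjusted p = 0.000136) and *Prokr1* higher in stomach at -1.22 (SE 0.23, adjusted p = 0.011). Both were above background in 1 organ only, and over the settings run *Arhgap25* ranged from 1.44 to 4.94 and *Prokr1* from -3.57 to -0.71. *Gfpt1*, an enzyme of hexosamine synthesis farther out, differed by -2.03 (SE 0.56, adjusted p = 0.0547) and *D6Ertd527e* by 0.04 (adjusted p = 0.934). *Gfpt1* was called higher in stomach without esophagus mouse 1 (-2.74, adjusted p = 0.000553) and where only probes above background were tested (adjusted p = 0.0309).

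Beside the trefoil factors, the cholesterol transporter *Abcg1* at 7.32 kb had 8.52, 8.62 and 7.17 in the stomach and 9.65, 9.50 and 6.10 in the esophagus. It was not called (0.31, SE 0.91, 95% interval -1.81 to 2.43, adjusted p = 0.892), and both mouse 4 arrays were the lowest of their organ. The serine protease *Tmprss3* at 14.2 kb on the *Tff1* side was higher in esophagus at 1.13 (SE 0.17, adjusted p = 0.00453). *Rsph1* differed by -0.04 (adjusted p = 0.961), and *Glp1r*, *Umodl1* and *Ubash3a* did not rise well above background anywhere. Of the 12 neighbours, 3 were thus higher in esophagus and 1 higher in stomach, beside 7.15% and 7.7% of all genes.

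**Figure D5:**
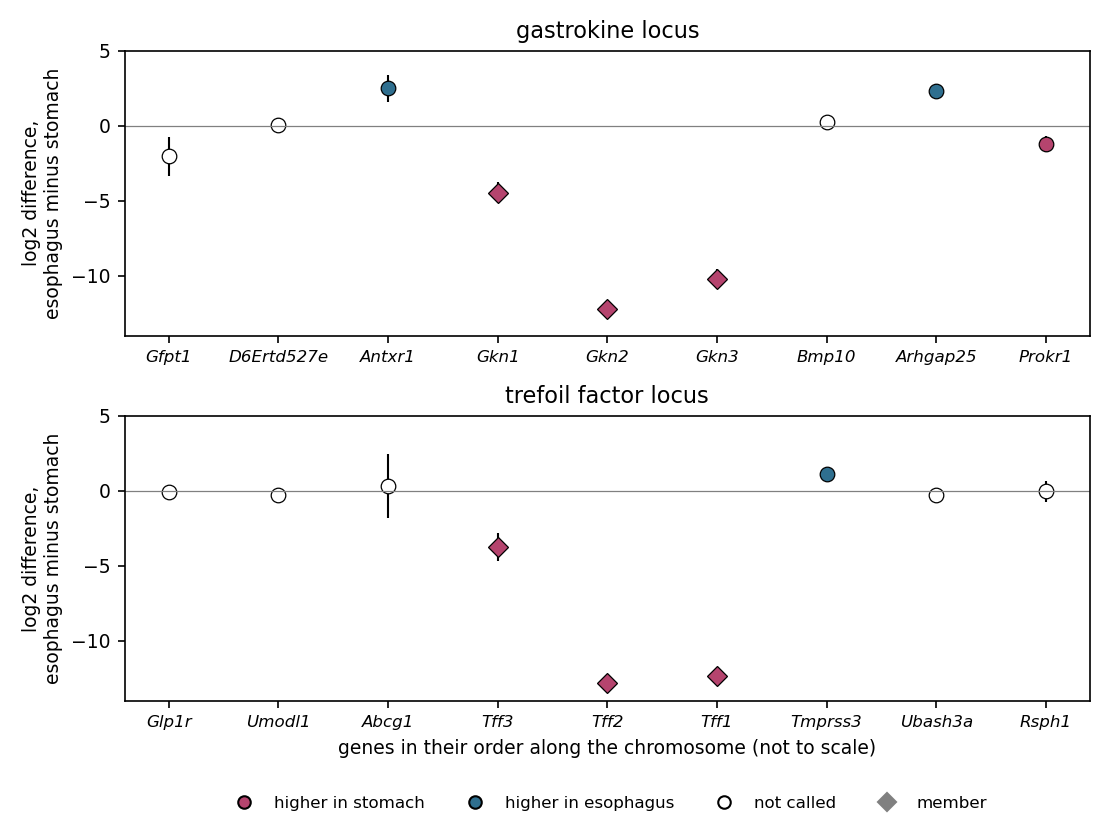
Log2 difference, esophagus minus stomach (vertical axis), with its 95% interval for the genes of the gastrokine locus (top) and the trefoil factor locus (bottom) in their order along the chromosome, not to scale; diamonds are members and fill gives the call. On the deposited values shown here the members lie between -12.80 and -3.76 and the neighbours between -2.03 and 2.50.

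The genes most like each member were found by the Euclidean distance between log2 values centred per probe over the 6 arrays, among 25836 candidate probes and leaving out the members themselves. For *Gkn2*, *Tff1* and *Tff2* these other genes were *Mucl3*, *Vsig2* and *Reg3g*, with distances of 0.73 to 1.67. *Gkn3* was nearest to *Trf*, transferrin (0.60), *Clca1* (0.63) and the keratin *Krt8* (0.75). *Gkn1* was nearest to *S100g* (0.54), *Bmp8b* (0.56) and *Cyp2j8* (0.59), and *Tff3* to *Tm4sf5* (0.41), *Rab3b* (0.46) and *Habp2* (0.55). Among the members, the closest pairs were *Gkn2* and *Tff1* (0.40), *Tff1* and *Tff2* (0.67), and *Gkn2* and *Tff2* (0.79), followed by *Gkn1* and *Tff3* (1.13). Over 6 arrays of 2 organs this measure is led by the size of the organ difference, and no test was made of it.

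By the brightest probe of each gene, the markers followed the organ labels except for *Trp63*. All 7 columnar markers were higher in stomach organoids, and 6 of 7 squamous markers were higher in esophagus organoids, while the brightest probe of *Trp63*, a factor of squamous basal cells, was higher in stomach at -1.22 (adjusted p = 0.0249). The other 3 *Trp63* probes were higher in esophagus (6.61, 8.55 and 6.06) and were above background there alone. Of the chief cell markers 3 of 4 were higher in stomach, and of the parietal cell markers 2 of 3. These were *Atp4a*, at least 1.94-fold with a dim stomach mean of 6.06, and *Slc26a9*, also above background on 2 of 3 esophagus arrays. *Atp4b* did not rise well above background anywhere. No endothelial, enteroendocrine, fibroblast or immune marker was called. Between 45.5% and 51.1% of the non-control spots of an array were well above background.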

How the data were processed

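RNA of 6 organoid cultures (3 stomach, 3 esophagus) was labelled with Cy3 and hybridised to 1 array each. Spots were quantified by the authors in Agilent Feature Extraction (version 11.5.1.1). Each deposited scanner file gives intensity values per spot, with local background and flags and without normalization between arrays. For the deposited log2 table, the authors corrected the background and applied quantile normalization. Normexp with an offset of 15 on median intensities followed by quantile normalization came within a median of 0.00507 log2 (at most 0.243) of it, and its 2029 empty cells are the 2029 spots marked as outliers. Table rows were matched to probes by spot number. Each column had a Spearman correlation of 0.990 to 0.994 with the median intensities of its own array and at most 0.920 with another array. Column medians were 5.24 to 5.25.

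Spots of a probe were averaged, leaving out empty cells. In R 4.3.3 with limma 3.58.1, lmFit and eBayes compared the organs over all 6 arrays without a block, and p-values were adjusted over 55681 probes. The fit was tested on simulated data. A level not well above background on every array of an organ, by the scanner software's flag, was replaced on each array by the lowest signal well above background, or by its own value where higher, to give a bound ("at least N-fold"). The number of arrays limits the precision. Current gene names were assigned by accession for 29057 probes and by a synonym for 116. The name in the files was kept for 3155 probes where it was a current symbol and for 23353 without a match.

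Members and gene lists were chosen with earlier results of these data known. Genes named are every member probe, in each list the 4 largest differences and those called against the list's majority, all partners and receptors, all locus neighbours, and the 3 genes nearest to each member. Other list or marker genes named beside them were chosen after their values were seen. Both organs carry the same mouse numbers in the labels. Deviations of same-mouse arrays from their organ means correlated with r = 0.025, 0.012 and -0.008 across probes. Alternatives were normexp on mean intensities (offsets 16 and 50), 75th percentile scaling, quantile normalization of background-subtracted signal, outlier-marked spots kept, a filter on dim probes, trended robust variances, mouse or slide as a block, each array left out, fold thresholds and averaging a gene's probes. Figures were drawn with matplotlib 3.10.9.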

Additional observations from a re-analysis of the deposited data

How the results depend on the processing

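All 7 member probes were called higher in stomach in every alternative run, each array left out included, with the highest adjusted p of 0.01 for *Tff3* at an offset of 50. With the mouse as a replicate block, 7 member probes, 34 companion genes and 6153 probes were called, against 7, 34 and 6770 without it, and among the member, list (brightest probe) and neighbour genes the block ended the call of *Itm2b* (adjusted p = 0.0992), added that of *Iqgap3* toward the stomach (-1.06, adjusted p = 0.0181) and changed no other. Leaving out 1 array gave 4091 to 7415 called probes. The count was lowest without the stomach array of mouse 1 (4091) or mouse 2 (4152) and highest without that of mouse 4 (7415). The slide as a block equals leaving out the esophagus array of mouse 4 (6289 probes). Scaling to the 75th percentile moved the median difference of all probes from 0.02 to 0.19, against which changes on that scale are to be read. Other genes changed sign without being called in any setting. *D6Ertd527e* went to -0.026 (offset 16), -0.010 (offset 50), -0.82 (75th percentile), -0.65 (quantile normalized background-subtracted signal) and -0.026 (outliers kept), *Mgam* to 0.18 and 0.14 and *Umodl1* to 0.22 and 0.018 on the 2 background-subtracted scales. With single arrays left out, values ranged from -0.30 to 1.47 for *Abcg1*, -0.048 to 0.37 for *Ackr3*, -0.12 to 0.16 for *D6Ertd527e*, -0.17 to 0.0014 for *Glp1r*, -0.37 to 0.0058 for *Mgam*, -0.24 to 0.29 for *Rsph1*, -0.061 to 0.15 for *Sis* and -0.011 to 0.21 for *Zp1*. The cause was not tested. What signal over background limits is the esophagus level of *Gkn1*, *Gkn2*, *Tff2* and *Tff3*, which these arrays give only as a bound, and that of *Tff1*, above background on 1 of 3 arrays.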

Other observations

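The stomach array of mouse 4 was set against those of mice 1 and 2 for the lists of pit cell genes, neck and isthmus genes and columnar transcription factors. Of the 12 pit cell genes well above background on all 3 stomach arrays, 8 were lowest on the mouse 4 array and none was highest there, with a median of -0.40 (log2) against the mean of mice 1 and 2. Of 9 mucous neck and isthmus genes, 6 were highest on that array and 1 was lowest, with a median of 0.36. The 6 were *Aqp5*, *Agr2*, *Muc6*, *Iqgap3*, *Cd44* and the proliferation gene *Mki67*, so they are not mucous cell genes alone. Over all 24429 probes above background in the stomach, 39.3% were lowest and 43.4% highest on that array. On 75th percentile scaling the counts were 9 lowest and none highest of the pit cell genes, and 5 highest and 2 lowest of the neck and isthmus genes, beside 43.7% lowest and 40.1% highest of all these probes. The counts of these short lists were not tested against the shares of all probes. Of the 10 columnar transcription factors 6 were highest and 4 lowest on the mouse 4 array by the deposited values, and 5 and 4 after scaling.

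The 2 widest cases of each list were named after their values were seen. *Capn9*, a calpain of the stomach, had 9.26, 8.03 and 6.38 on the stomach arrays of mice 1, 2 and 4, and *Muc5ac* had 15.65, 15.03 and 13.26. *Muc6* had 7.39, 8.33 and 9.79, and *Cd44* had 11.72, 11.66 and 13.27. *Tff2*, a neck cell product in the tissue, was lowest on the mouse 4 array (17.48) on the deposited values, and *Gkn3* was lowest there too (16.16). The *Tff2* spot ranked 8, 4 and 19 in intensity on the arrays of mice 1, 2 and 4, which leaves little room for a rise. Before scaling its signal was highest on the mouse 4 array, so these values cannot tell whether *Tff2* moved with *Muc6*. That array was also the only stomach array harvested on day 7, and the part of the mouse and of the day cannot be told apart.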
